A study of Dendrobium officinale with 6 samples.

Results

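The unigenes (assembled transcripts) annotated to the synthesis of cutin, suberin and wax in *Dendrobium officinale*, a medicinal orchid, were compared between protocorm-like bodies (PLBs) and leaves. A unigene was taken as a member when its KEGG annotation listed the pathway for cutin, suberine and wax biosynthesis, or when its first KEGG ortholog was K15397, 3-ketoacyl-CoA synthase. The rule found 307 of the 157901 unigenes of the assembly, 254 by the pathway and 56 by the ortholog, with 3 found by both. Members were grouped by ortholog, of which there were 13.

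The cuticle is the water barrier that the epidermis of aerial organs secretes. It is a cutin polyester of oxidised fatty acids, covered and filled with waxes that derive from very-long-chain acyl-CoAs. The elongase complex lengthens plastid-made fatty acids in the endoplasmic reticulum, 3-ketoacyl-CoA synthase (KCS) being its condensing enzyme. An alkane branch with CER1, CER3 and MAH1 and an alcohol branch with fatty acyl-CoA reductase (FAR) and WSD1 then make the waxes, and cytochrome P450s that oxidise fatty acids supply cutin and suberin.

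The PLB libraries A13, A14 and A15 came from masses of protocorm-like tissue that were started from seeds and propagated on MS-based medium with the regulators α-NAA, 6-BA and 2,4-D and with potato juice. The culture ran for 60 days at 1600 lx with 16 h of light and 8 h of dark. The leaf libraries A10, A11 and A12 came from leaves of the original greenhouse plants, with no agent named in the labels. Organ, stage, seed origin and growth conditions therefore differ together between the tissues and cannot be told apart. Each tissue has 3 libraries that the labels call biological, without saying whether they came from separate plants or cultures, and p-values therefore measure only the spread between these samples, which may be technical. Expected counts summed to 17697113 to 18219217 in PLB libraries and 17602153 to 18408442 in leaf libraries. In whole-tissue RNA, fewer cells of a type and less RNA per cell cannot be told apart.

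The tissue labels were set against light-harvesting chlorophyll proteins. Their summed level was 595 to 1768 FPKM (fragments scaled to transcript length and library size) in PLBs and 13727 to 16517 FPKM in leaves. Among PLBs, A15 had the lowest level in 10 of 10 light-harvesting orthologs.

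The pathway label held for fewer than all members. Of the 307 unigenes, 125 were also named as the enzyme by the NR or SwissProt hit or the Pfam domain and 182 were not, a division made after annotation and FPKM values had been seen. Of the 116 unigenes under FAR, 17 were named as such a reductase, while 71 of the other 99 had no SwissProt hit and 8 were rhodanese-like. Under KCS, 30 of 56 were named as the synthase, and the rest included 7 named after the transcription factor SRM1, 6 RADIALIS-like proteins and 4 named NAR1. Of the 46 under peroxygenase, 5 were named as the enzyme and 39 were retrovirus-related polyproteins. The CER1/CER3, WSD1, CYP86 and CYP94 members were all named as their enzyme. All 25 CYP704 members counted as named, although NR and SwissProt called CL14213.Contig30_All a QUIRKY protein and a further one also named a mobile element. The median length was 1836 nucleotides in enzyme-named members and 1128 nucleotides in the others. Values below are for enzyme-named members unless the text says otherwise.

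Cuticle enzyme transcripts took a larger part of the PLB libraries than of the leaf libraries. The 125 enzyme-named unigenes summed to 1918, 3799 and 3098 FPKM in PLBs, against 849, 943 and 793 FPKM in leaves. Every PLB library was above every leaf library. A single unigene, Unigene1142_All, held 59.6% to 75.0% of the enzyme-named counts in PLBs and 47.0% to 47.8% in leaves. Without it, a choice made after its values were seen, the sum was 880 ± 81.8 FPKM in PLBs and 454 ± 44.6 FPKM in leaves (SD, n = 3 each).

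Counted by unigene, the members went both ways. In edgeR's quasi-likelihood test, 207 members passed the filter on low counts, and calls were made where the log2 fold change was 1 or more in size and the adjusted p was 0.001 or less. By that rule 45 members were higher and 47 lower in PLBs, 44.4% of those tested, against 39.7% of all 70383 unigenes tested (16.8% higher and 22.9% lower). Of 97 tested enzyme-named unigenes, 29 were higher (29.9%) and 18 lower (18.6%), with a median log2 fold change of 0.79, against 0.00 for all tested unigenes. Of the 110 tested members that were not enzyme-named, 16 were higher and 29 lower, with a median of -0.36. The counts fell with any 1 library left out, where the test also has fewer degrees of freedom. Without leaf replicate 3 (A12) the enzyme-named calls were 11 higher and 10 lower, without leaf replicate 2 (A11) 12 higher and 11 lower, and without leaf replicate 1 (A10) 15 higher. Without PLB replicate 1 (A13) 20 were higher, without PLB replicate 2 (A14) 17 and without PLB replicate 3 (A15) 22.

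Summed by family, more were higher than lower in PLBs, which rests on the split of KCS into several families. Counts were added over all enzyme-named unigenes of a family, with KCS split by the Arabidopsis number that SwissProt gives, and tested together with all other orthologs at an adjusted p under 0.05. Of 23 families, 14 were higher in PLBs, 6 were lower and 3 did not pass. The 14 include KCS1, KCS2, KCS3, KCS4, KCS5, KCS10, KCS11 and KCS20. Outside KCS, CER3-like, MAH1-like, CYP86B, CYP704C1, HTH and PXG were higher. The 6 lower were FAR, WSD1, CYP86A, CYP94, CYP704B1 and HHT1, so no majority rose outside KCS. At this threshold 75.8% of all orthologs and families were called (37.2% higher and 38.6% lower). The tissues did not overlap in summed FPKM in 18 families, 15 with every PLB above every leaf. How many of all orthologs separate in this way was not counted. The 15 include FAR, whose summed counts were called lower. By the 13 orthologs with every unigene summed, 7 were higher and 5 lower, where again 75.8% of all 4103 orthologs were called, 37.2% higher and 38.6% lower.

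**Figure D1:**
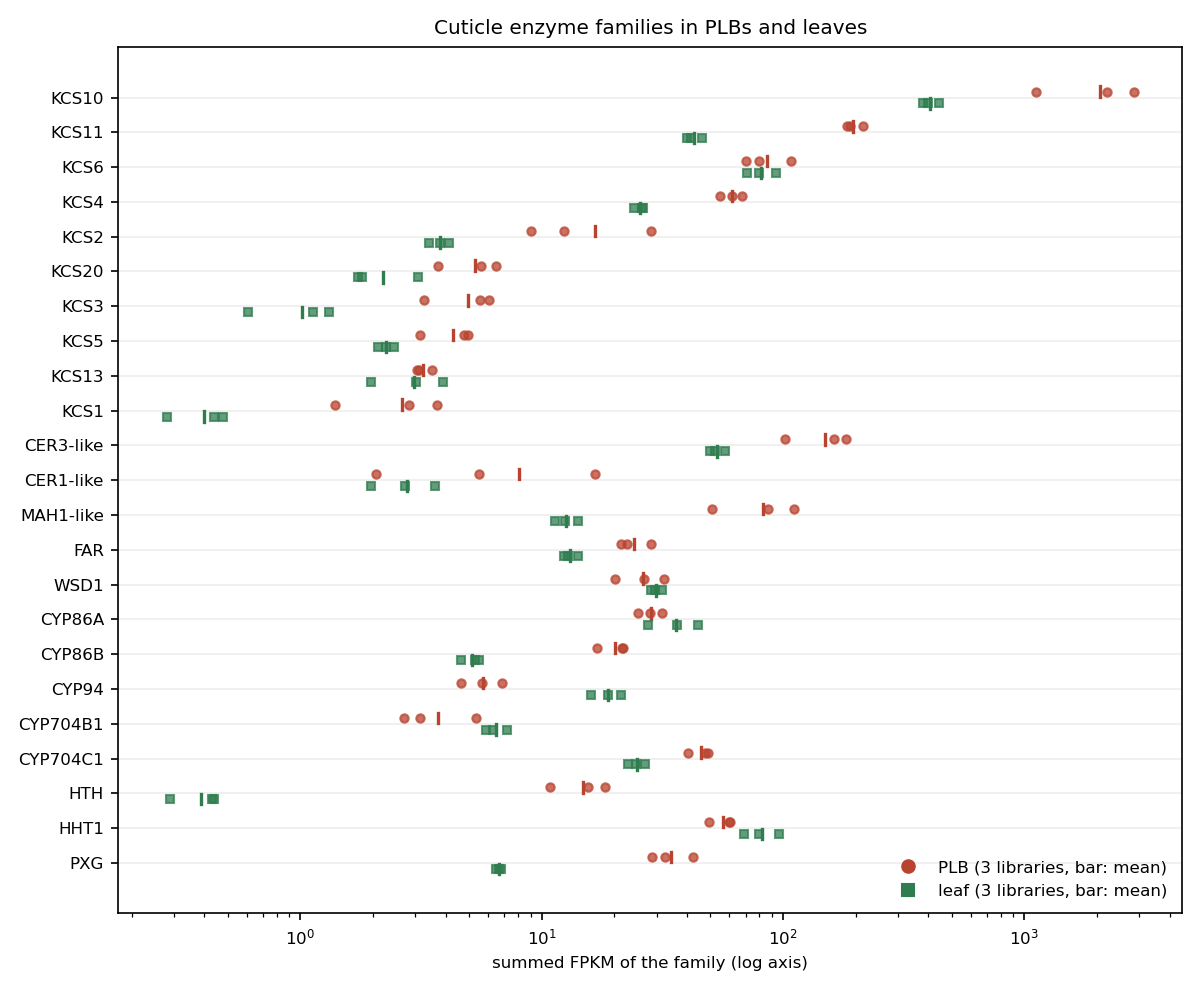
Summed FPKM of the 23 enzyme families on a log axis, with 1 point per library (circles PLB, squares leaf) and a bar at the mean of each tissue. HOTHEAD (HTH) at 14.9 against 0.387 FPKM and MAH1-like at 82.7 against 12.7 FPKM lie far to the right in PLBs, whereas KCS6, CYP86A and WSD1 overlap between the tissues.

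KCS condenses an acyl-CoA with malonyl-CoA, and its isoforms differ in the chain length they accept. The 30 KCS unigenes together reached 2439 ± 889 FPKM in PLBs and 570 ± 46.7 FPKM in leaves (SD, n = 3 each). Their summed counts were higher in PLBs by 1.87 ± 0.26 on the log2 scale (SE), with an adjusted p of 2.83e-04 by edgeR. Of 28 tested KCS unigenes, 9 rose, 4 fell and 15 did not pass, so that 46.4% were called, against 39.7% of all tested unigenes.

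Unigene1142_All, the only KCS10 unigene, was the most abundant member in both tissues. KCS10 is FIDDLEHEAD in Arabidopsis, a synthase of the shoot epidermis whose loss lets organs fuse. It stood at 1123, 2841 and 2210 FPKM in PLBs, against 401, 442 and 380 FPKM in leaves. All PLB libraries were above all leaf libraries, but the PLB values spread 2.53-fold and the leaf values 1.16-fold. The log2 fold change was 2.04 ± 0.34 (SE) with an adjusted p of 0.0011 in the fit of unigenes, which missed the threshold of 0.001, and 2.10 ± 0.30 with an adjusted p of 3.44e-04 in the fit of families. DESeq2 called the unigene at an adjusted p of 4.45e-08, and without A13 edgeR called it at 2.35 (adjusted p = 1.67e-04).

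KCS11 was the second most abundant KCS family in PLBs. Its 8 unigenes summed to 189, 214 and 185 FPKM in PLBs, against 41.7, 46.4 and 40.1 FPKM in leaves, a log2 fold change of 1.94 ± 0.09 (adjusted p = 1.14e-06, edgeR). CL6756.Contig1_All carried most of it with 147, 157 and 145 FPKM in PLBs and 10.7, 10.9 and 10.7 FPKM in leaves, and it was called higher at 3.49 ± 0.13. A pair of KCS11 unigenes went the other way. Unigene18540_All had 0.25, 0.10 and 0 FPKM in PLBs, against 6.69, 8.64 and 8.14 FPKM in leaves (log2 fold change -6.36 ± 0.62), and Unigene18539_All was lower at -2.76 ± 0.35.

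KCS6 is CER6 of Arabidopsis, the main condensing enzyme for stem wax there. Its 8 unigenes summed to 86.2 ± 19.8 FPKM in PLBs and 81.5 ± 11.3 FPKM in leaves, and the tissues overlapped. The family did not pass the test (log2 fold change -0.23 ± 0.17, adjusted p = 0.242). Without A14 it was called lower at -0.44 (adjusted p = 0.0106). With libraries scaled by size only it was at 0.0199, in a fit where the median of all orthologs was then 0.26, against 0.01 with the main scaling. Within it, Unigene19266_All had 36.5, 64.1 and 40.6 FPKM in PLBs and 54.0, 63.1 and 51.1 FPKM in leaves (adjusted p = 0.0764). CL11711.Contig2_All had 15.9, 20.1 and 18.1 FPKM in PLBs, against 0.09, 0.09 and 0.06 FPKM in leaves, the largest called rise of all KCS unigenes at 7.40 ± 0.27.

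The other KCS families were lower in level. KCS4 stood at 61.3 ± 6.21 FPKM in PLBs and 25.5 ± 1.22 FPKM in leaves (log2 fold change 1.02 ± 0.09, adjusted p = 2.76e-05). KCS2 is known in Arabidopsis for suberin of the root, and it reached 28.3, 12.4 and 9.07 FPKM in PLBs, against 3.43, 3.80 and 4.15 FPKM in leaves (2.32 ± 0.41). Its main unigene Unigene29415_All was called higher at 5.80 ± 0.55, but not without A12 (adjusted p = 0.00118). KCS1, KCS3, KCS5 and KCS20 were also called higher as families, with log2 fold changes of 2.48, 2.03, 0.69 and 1.18, although none of their unigenes reached the stricter unigene call. The call of KCS5 was lost when A10, A11, A12, A13 or A14 was left out, with adjusted p up to 0.084. KCS13, which in Arabidopsis bears on stomatal number, had 3.23 ± 0.26 FPKM in PLBs and 2.96 ± 0.98 FPKM in leaves and did not pass (adjusted p = 0.676).

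**Figure D2:**
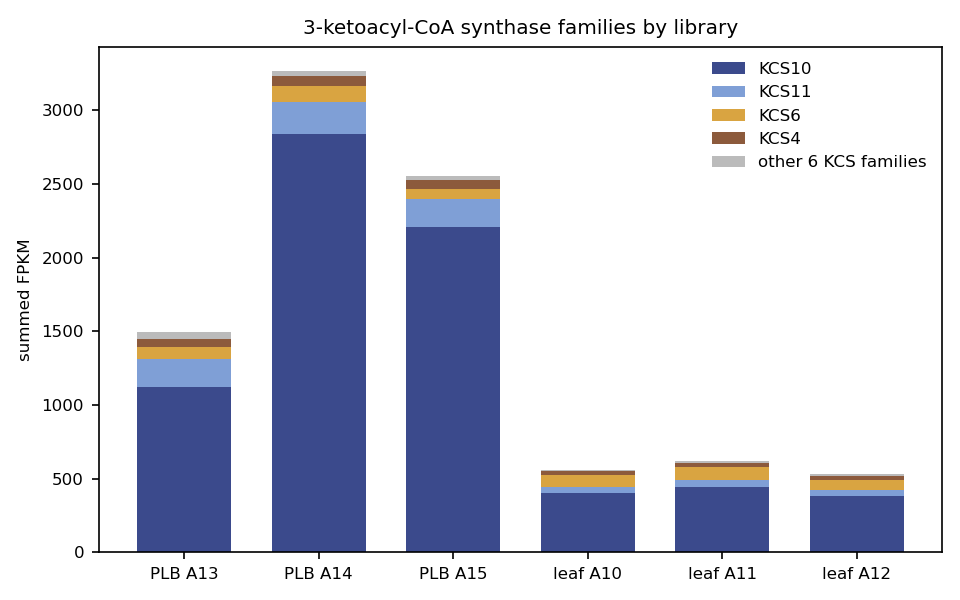
Summed FPKM of the KCS families in each library as stacked bars on a linear axis from 0, with the 4 most abundant families and the other 6 together. KCS10 makes up most of every bar, 1123 to 2841 FPKM in PLBs and 380 to 442 FPKM in leaves.

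In the alkane branch, CER3 and MAH1 rose and CER1 did not pass. CER1 and CER3 together turn very-long-chain acyl-CoAs into alkanes in Arabidopsis. The 9 CER3-like unigenes summed to 102, 163 and 183 FPKM in PLBs, against 52.2, 57.4 and 49.9 FPKM in leaves. Every PLB was above every leaf, with a log2 fold change of 1.26 ± 0.21 (adjusted p = 7.07e-04, edgeR). The only CER1-like unigene, Unigene39217_All, had 16.6, 5.53 and 2.07 FPKM in PLBs and 2.72, 3.61 and 1.96 FPKM in leaves. The tissues overlapped there, A13 alone standing well above the leaves (family fit, adjusted p = 0.104). Without A13 the log2 fold change of 1.30 dropped to 0.23 (adjusted p = 0.645), and without A15 it was 1.75 (adjusted p = 0.0125).

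CER3-like contigs of a single assembly cluster, CL3157, changed in opposite directions. CL3157.Contig2_All had 69.2, 129 and 141 FPKM in PLBs, against 10.8, 11.6 and 11.7 FPKM in leaves, and was called higher at 3.01 ± 0.29. CL3157.Contig3_All was also called higher at 2.69 ± 0.26. CL3157.Contig4_All, the CER3-like contig with the highest level in leaves, had 2.61, 3.0 and 2.32 FPKM in PLBs, against 28.6, 31.4 and 26.3 FPKM in leaves, and was called lower at -3.75 ± 0.17. CL3157.Contig1_All had 5.28, 1.64 and 1.57 FPKM in PLBs and 4.47, 5.43 and 4.37 FPKM in leaves and did not pass, though without A13 it was called lower at -1.84. The calls of contigs 2 and 3 were lost without A11 or A12 (adjusted p up to 0.00123). Summed over its 6 contigs, the cluster was higher in PLBs at 1.16 ± 0.23 (adjusted p = 0.00164).

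MAH1 is the Arabidopsis cytochrome P450 that hydroxylates alkanes at midchain to secondary alcohols and ketones. The 4 MAH1-like unigenes summed to 50.7, 86.4 and 111 FPKM in PLBs, against 12.5, 14.1 and 11.4 FPKM in leaves (log2 fold change 2.65 ± 0.28, adjusted p = 6.01e-05). The name came from NR, and SwissProt placed the same unigenes as noroxomaritidine synthase, a cytochrome P450 of Amaryllidaceae alkaloid synthesis. CL6106.Contig2_All, the only unigene under the MAH1 ortholog, had 13.2, 27.0 and 35.6 FPKM in PLBs, against 0.08, 0.20 and 0.03 FPKM in leaves, and rose by 7.65 ± 0.61 on the log2 scale. The other contigs of that cluster listed the CYP86B1 ortholog first. CL6106.Contig3_All was called higher at 4.72 ± 0.41, and CL6106.Contig1_All, with 15.4, 26.2 and 32.0 FPKM in PLBs and 7.20, 8.03 and 7.50 FPKM in leaves, was not called (1.39 ± 0.27, adjusted p = 0.00238), but without A13 it was, at 1.65. A13 was the lowest PLB library in all 3 contigs, whereas it was the highest for the CER1-like unigene.

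In the alcohol branch, FAR reduces acyl-CoAs to primary alcohols. Unigene16222_All, named fatty acyl-CoA reductase 4 by NR, had 7.81, 15.7 and 14.4 FPKM in PLBs, against 0.31, 0.31 and 0.18 FPKM in leaves (log2 fold change 5.26 ± 0.41). CL208.Contig2_All had 4.46, 4.60 and 3.52 FPKM in PLBs and 0.97, 0.78 and 0.67 FPKM in leaves and was called higher at 2.06 ± 0.29. The 12 FAR contigs of cluster CL14827 included long ones that other annotation joins to PIF4, a transcription factor of light responses: 3 of them listed a PIF4 ortholog first. Of these contigs CL14827.Contig9_All had 0.10, 0.06 and 0.03 FPKM in PLBs, against 4.96, 4.98 and 4.66 FPKM in leaves.

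The direction of the FAR family depended on these contigs. With all 17 unigenes the summed FPKM was 24.1 ± 3.80 in PLBs and 13.2 ± 0.93 in leaves, while the summed counts, in which long contigs weigh more, were lower in PLBs at -0.37 ± 0.12 (adjusted p = 0.025). That call was lost without A10, A11, A12 or A13 (adjusted p up to 0.0838). By limma on log2 of the summed FPKM the family was higher, at 0.86 with a pseudocount of 0.1. Without cluster CL14827, left out after its values were seen, the other 5 unigenes summed to 15.3, 22.6 and 20.5 FPKM in PLBs, against 1.49, 1.28 and 0.93 FPKM in leaves, and were higher at 3.67 ± 0.22 (adjusted p = 3.37e-06, edgeR).

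WSD1 esterifies those alcohols to wax esters. The 9 WSD1 unigenes summed to 26.6, 32.3 and 20.2 FPKM in PLBs, against 28.5, 31.6 and 29.6 FPKM in leaves, and the tissues overlapped. The summed counts passed the test at -0.42 ± 0.15 (adjusted p = 0.0378), but not when A10, A11, A12, A13 or A15 was left out (adjusted p up to 0.114), nor by library size or limma. The contigs behind the sum differed by tissue. Unigene197_All had 16.3, 21.8 and 11.7 FPKM in PLBs, against 3.13, 3.43 and 2.98 FPKM in leaves, and was called higher at 2.08 ± 0.27, a call lost without A10, A11, A12 or A13 (adjusted p up to 0.00334).

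Cluster CL4763 held the other 8 WSD1 contigs. CL4763.Contig1_All, at 8.67, 10.0 and 6.98 FPKM in PLBs and 8.16, 9.25 and 9.15 FPKM in leaves, did not pass the test. CL4763.Contig3_All had no count in PLBs, against 6.03, 7.11 and 4.99 FPKM in leaves, at least 235-fold lower when a floor of 3 counts over the PLB libraries is used. By the same floor CL4763.Contig6_All was at least 181-fold lower, CL4763.Contig5_All at least 122-fold and CL4763.Contig8_All at least 91.4-fold, contigs 5 and 8 losing their calls without A11 or A12 (adjusted p up to 0.00181). CL4763.Contig2_All went the other way, with 1.24, 0.49 and 1.24 FPKM in PLBs and no count in leaves, at least 23.7-fold higher. The floor covers counting error only. Summed over its 8 contigs, CL4763 had 317, 328 and 255 counts in PLBs, against 804, 901 and 813 counts in leaves. The cluster was lower in PLBs at -1.82 ± 0.15 (adjusted p = 1.41e-05, edgeR), far less than its single contigs with no count in PLBs.

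**Figure D3:**
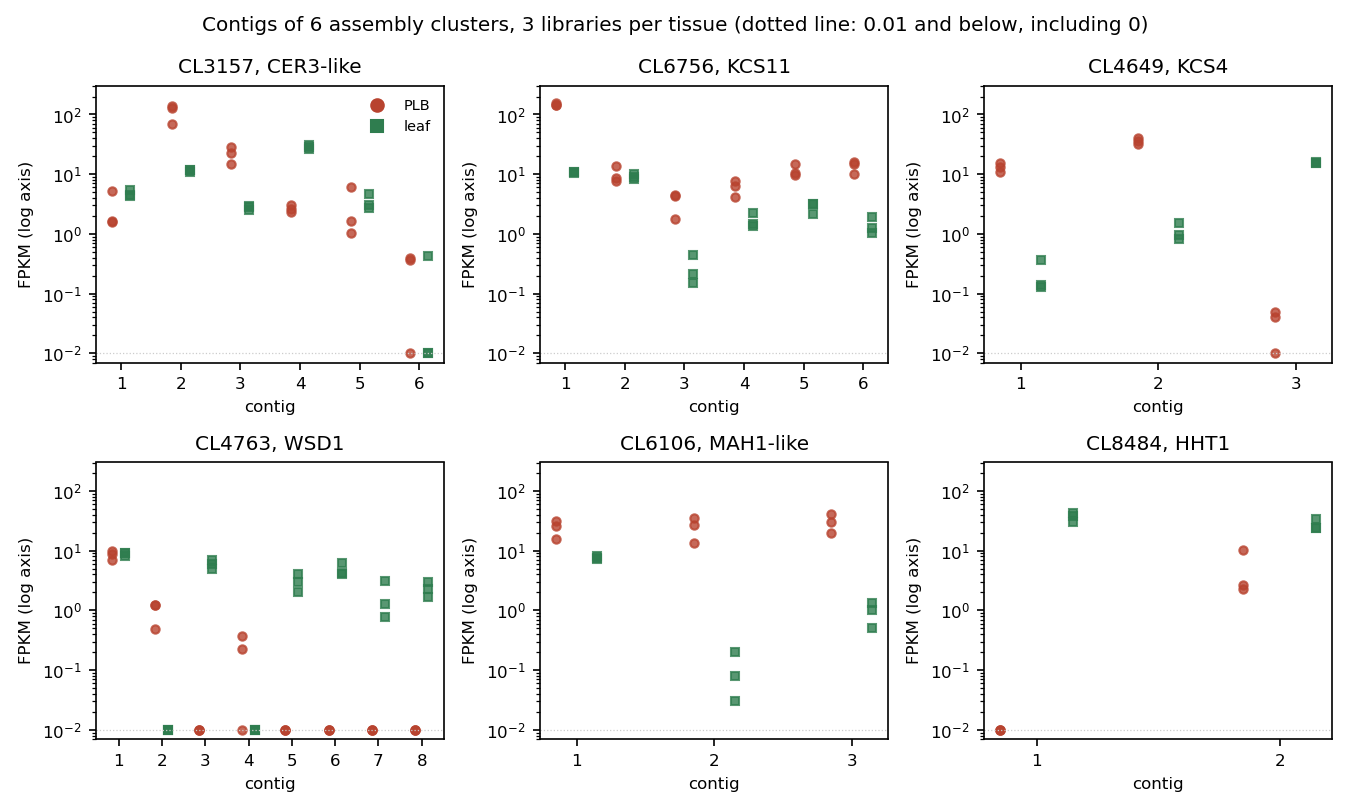
FPKM of the enzyme-named contigs in 6 assembly clusters on a log axis, with 1 circle per PLB library and 1 square per leaf library and values of 0.01 or less, including 0, drawn on the dotted line. Within CL3157 contig 2 is higher and contig 4 lower in PLBs, and in CL4763 contigs 3 and 5 to 8 have points above the line in leaves only.

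Contigs of a cluster share sequence, so the estimate of their counts divides reads among them. The cluster counts that follow were not made over all clusters of the assembly, so no general share stands beside them. Of 21 clusters with at least 2 enzyme-named contigs, 5 had contigs called in both directions. In 8 clusters every called contig was higher and in 5 every called contig was lower. Cluster CL4649, all KCS4, was another example of both: CL4649.Contig2_All had 31.6, 41.0 and 35.8 FPKM in PLBs and 0.97, 1.55 and 0.81 FPKM in leaves, while CL4649.Contig3_All had 0, 0.04 and 0.05 FPKM in PLBs and 16.1, 15.4 and 15.4 FPKM in leaves. Summed over its 3 contigs CL4649 was higher in PLBs at 1.23 ± 0.12.

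Among the P450s that KEGG lists as hydroxylases of the end of the fatty acid chain, CYP86B was higher and CYP94 lower in PLBs. The 4 CYP86B unigenes summed to 21.6, 21.8 and 16.9 FPKM in PLBs, against 5.53, 5.29 and 4.65 FPKM in leaves (log2 fold change 1.74 ± 0.11, adjusted p = 3.45e-06). CYP86B1 is known in Arabidopsis for the very-long-chain monomers of suberin. The CYP94 pair gave 5.68, 6.84 and 4.65 FPKM in PLBs, against 18.9, 16.0 and 21.4 FPKM in leaves (-2.03 ± 0.16, adjusted p = 1.44e-05). Members of CYP94 are also known to turn over the hormone jasmonoyl-isoleucine. NR named both unigenes CYP94B3-like and SwissProt named both CYP94C1, so their part in cutin or suberin rests on the KEGG label. CL11746.Contig2_All fell by 6.37 on the log2 scale, with 0.25, 0.19 and 0.28 FPKM in PLBs and 15.4, 13.4 and 17.5 FPKM in leaves, while CL11746.Contig1_All, at 5.43, 6.65 and 4.37 FPKM in PLBs and 3.52, 2.64 and 3.86 FPKM in leaves, did not pass.

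CYP86A enzymes make the hydroxylated acids of cutin and, in CYP86A1, of root suberin. Unigene22433_All, named CYP86A8-like, had 18.9, 26.6 and 31.5 FPKM in PLBs and 35.1, 42.1 and 26.3 FPKM in leaves, with overlap between the tissues. Its ortholog passed the test at -0.66 ± 0.22 (adjusted p = 0.0245) but not without A10, A11, A13 or A14 in turn. The CYP86A1 unigene Unigene42764_All had 4.90, 1.31 and 0.18 FPKM in PLBs and 1.30, 1.86 and 0.77 FPKM in leaves. A13 alone was above the leaves and A15 below them, and the test did not pass (adjusted p = 0.735).

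CYP704 enzymes hydroxylate long-chain acids, CYP704B1 being known from the sporopollenin of Arabidopsis pollen. The 8 CYP704B1 unigenes were low in both tissues at 3.73 ± 1.43 FPKM in PLBs and 6.46 ± 0.65 FPKM in leaves, with a log2 fold change of -1.21 ± 0.26 (adjusted p = 0.00327). The 17 CYP704C1 unigenes summed to 45.6 ± 4.53 FPKM in PLBs and 24.8 ± 1.98 FPKM in leaves (0.66 ± 0.11, adjusted p = 7.07e-04). The most abundant of them, Unigene43288_All, had 18.7, 15.2 and 13.3 FPKM in PLBs and 16.4, 17.6 and 16.6 FPKM in leaves and was not called. CL14869.Contig5_All, with 6.30, 3.98 and 7.42 FPKM in PLBs against 0.04, 0.14 and 0.04 FPKM in leaves, and CL14213.Contig40_All, with 4.40, 9.03 and 8.32 FPKM in PLBs against 0, 0.16 and 0 FPKM in leaves, were called higher at 6.04 ± 0.53 and 6.51 ± 0.84. CL14213.Contig40_All lost its call without A10, A12, A14 or A15 (adjusted p up to 0.0023), and without A11, the only leaf library where its FPKM was above 0, its fitted value was 10.22.

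HOTHEAD (HTH) had the largest log2 fold change of the 23 families. It oxidises hydroxylated acids further to dicarboxylic acids, and its loss in Arabidopsis fuses floral organs. The 4 HTH unigenes summed to 18.3, 15.6 and 10.9 FPKM in PLBs, against 0.29, 0.43 and 0.44 FPKM in leaves (log2 fold change 4.90 ± 0.27, adjusted p = 2.14e-06). All 4 were called higher, against 16.8% of all tested unigenes. Of these, 3 are contigs of the single cluster CL8687, which share reads and are not separate genes. CL8687.Contig2_All, the most abundant, had 8.32, 7.20 and 6.02 FPKM in PLBs and 0.08, 0.18 and 0.36 FPKM in leaves (4.75 ± 0.45). CL8687.Contig3_All rose by 6.37 ± 0.89, and CL8687.Contig1_All, with 1.71, 1.19 and 1.25 FPKM in PLBs and no count in leaves, was at least 42.1-fold higher by the floor of 3 counts. With 1 library left out the family kept its call (4.69 to 5.07), but single contigs did not. CL8687.Contig1_All lost its call without any 1 of the 6 libraries (adjusted p up to 0.00209). CL8687.Contig3_All lost it without A10, A11, A12, A13 or A14 (adjusted p up to 0.00327), at 5.81 to 9.17, and CL8687.Contig2_All without A11 (adjusted p = 0.00105).

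Peroxygenase (PXG) epoxidises unsaturated fatty acids for cutin. The 5 enzyme-named unigenes summed to 28.6, 42.5 and 32.3 FPKM in PLBs, against 6.47, 6.82 and 6.66 FPKM in leaves (2.39 ± 0.16, adjusted p = 6.46e-06). Unigene15411_All accounted for most of the change with 11.8, 22.6 and 22.99 FPKM in PLBs and 0.71, 0.81 and 0.79 FPKM in leaves (4.32 ± 0.35). Unigene43247_All had 5.87, 14.9 and 9.20 FPKM in PLBs and 5.76, 5.95 and 5.87 FPKM in leaves and did not pass. CL13893.Contig1_All, which failed the filter on low counts, had 10.9, 4.90 and 0.13 FPKM in PLBs and 0, 0.06 and 0 FPKM in leaves, nearly all of it in A13 and A14.

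HHT1 transfers ferulate to hydroxylated fatty acids of suberin and belongs to the BAHD acyltransferases. The family was lower in PLBs: its 12 unigenes summed to 49.5, 60.1 and 59.8 FPKM in PLBs, against 80.0, 96.2 and 69.3 FPKM in leaves (log2 fold change -0.86 ± 0.14, adjusted p = 7.85e-04). Different unigenes led in each tissue. CL587.Contig2_All had 25.3, 45.2 and 44.8 FPKM in PLBs, against 3.24, 3.54 and 2.18 FPKM in leaves (3.38 ± 0.31). CL8484.Contig1_All had no count in PLBs, against 37.6, 42.5 and 30.1 FPKM in leaves, at least 1484-fold lower by the floor. It held 3605 of the 7432 leaf counts of the family, whose PLB counts were 4805. The lower family sum therefore rests on this contig, and the family was not fitted without it. The 2 contigs of cluster CL8484 together had 305, 69 and 78 counts in PLBs, against 1970, 2434 and 1635 counts in leaves. As a sum the cluster was lower at -4.10 ± 0.52 (adjusted p = 1.61e-04, edgeR), so reads of the cluster were present in PLBs. SwissProt placed CL8484.Contig1_All as fatty alcohol:caffeoyl-CoA acyltransferase, which in Arabidopsis makes the alkyl caffeates of root waxes. With CL10373.Contig1_All, CL10373.Contig2_All and Unigene2128_All, which NR named a shikimate hydroxycinnamoyltransferase, 4 of 9 tested HHT1 unigenes were called lower and 1 higher, against 22.9% lower and 16.8% higher among all tested unigenes.

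**Figure D4:**
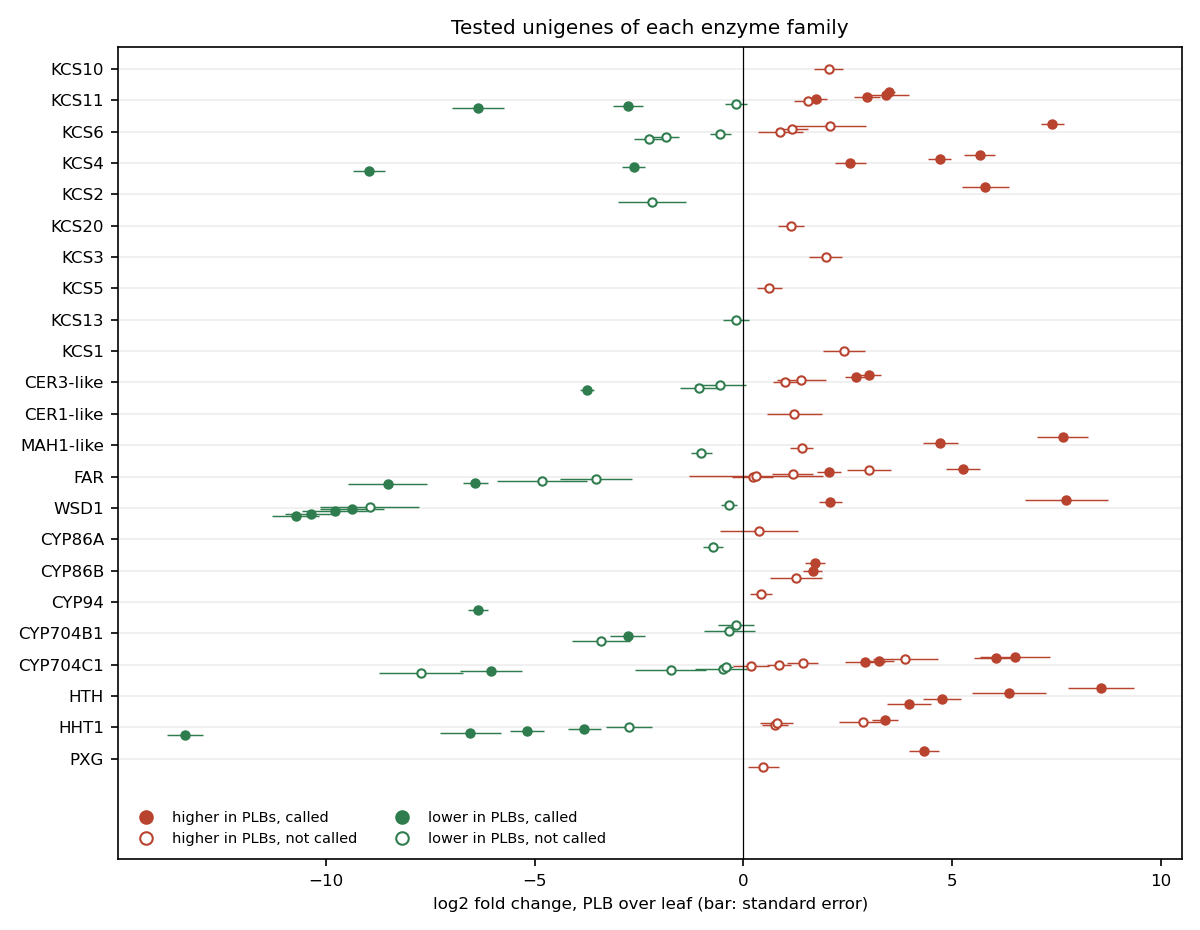
Log2 fold change (PLB over leaf) of the 97 tested enzyme-named unigenes by family, with standard errors and filled points for called unigenes. HTH unigenes all lie to the right, CYP704B1 unigenes all lie to the left, and KCS4, KCS11, WSD1 and HHT1 have called unigenes on both sides. For unigenes with no count in a tissue the plotted value depends on the prior count.

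The members that no other database named as the enzyme had a sum that turned on a pair of unigenes. Their 182 unigenes summed to 551, 603 and 609 FPKM in PLBs, against 876, 902 and 928 FPKM in leaves. Under KCS, Unigene2249_All, a RADIALIS-like 3 protein (a small MYB-type regulator), had no count in PLBs, against 165, 205 and 202 FPKM in leaves, at least 2512-fold lower. Under FAR, Unigene20326_All, a homolog of transcription elongation factor 1, had no count in PLBs, against 110, 106 and 120 FPKM in leaves, at least 1673-fold lower. Without this pair, left out after its values were seen, the other 180 summed to 588 ± 31.8 FPKM in PLBs and 599.5 ± 7.93 FPKM in leaves, and the tissues overlapped.

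The most abundant FAR member in PLBs, CL1665.Contig8_All, was a phosphoglycerate mutase-like protein. It had 27.0, 37.0 and 36.5 FPKM in PLBs and 2.76, 2.88 and 2.67 FPKM in leaves (log2 fold change 3.29 ± 0.19). With all contigs of its cluster summed, the value was 0.11 and was not called (adjusted p = 0.468, edgeR). Unigene24525_All, a subunit of the oligosaccharyltransferase for protein glycosylation, was lower at -1.38 ± 0.18 but not called without A10, A11, A12, A13 or A15 (adjusted p up to 0.00274), and Unigene44460_All, an rRNA-processing protein by NR, did not pass. CL1335.Contig94_All, an O-fucosyltransferase, was at least 128-fold higher and CL3097.Contig13_All, a Do-like protease by NR, at least 72.5-fold lower in PLBs, the call of the protease being lost without A10, A11 or A12 (adjusted p up to 0.00155). None of these names is a reductase. The FAR ortholog with all its unigenes summed to 306 ± 26.6 FPKM in PLBs and 429 ± 12.4 FPKM in leaves and was lower in PLBs at -0.31 ± 0.08 (adjusted p = 0.00763). Another 72 members listed 1 of 41 other orthologs first. Their mean FPKM was 11.5 or less in PLBs and 9.36 or less in leaves, and 5 of 27 tested were higher and 4 lower, against 16.8% higher and 22.9% lower among all tested unigenes.

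The libraries of a tissue were closer to each other in leaves than in PLBs. In 18 of 23 families the ratio of the highest to the lowest library was wider among PLBs. The same count was not made over all orthologs. Light-harvesting sums also spread more among PLBs (595 to 1768 FPKM) than among leaves (13727 to 16517 FPKM). The family ratio among PLBs reached 8.02 for CER1-like, 3.12 for KCS2, 2.65 for KCS1, 2.53 for KCS10 and 2.19 for MAH1-like. A14 was the highest PLB library in 12 families, A13 in 7 and A15 in 4.

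Related lists give the setting of the members. The elongase partners of KCS, which reduce and dehydrate its product or activate the acid, summed to 520 to 614 FPKM in PLBs and 413 to 442 FPKM in leaves, with 11 of 82 tested unigenes higher and 24 lower (42.7% called, close to the 39.7% of all tested unigenes). Among them the 3-ketoacyl-CoA reductase ortholog was higher in PLBs with 57.2, 69.2 and 57.3 FPKM, against 38.5, 40.5 and 40.98 FPKM in leaves (log2 fold change 0.60 ± 0.10, adjusted p = 7.53e-04). The enoyl-CoA reductase ortholog was lower at -0.47 ± 0.10 with overlapping FPKM, and the dehydratase ortholog did not pass. The most abundant of these unigenes, both acyl-CoA synthetases, were CL7425.Contig2_All with 170, 150 and 108 FPKM in PLBs and 52.9, 52.2 and 57.3 FPKM in leaves, which missed the threshold (adjusted p = 0.00123), and CL7286.Contig1_All, with a log2 fold change of 0.00 ± 0.17.

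Plastid fatty acid synthesis, the source of the chains, summed to 909 to 1065 FPKM in PLBs and 962 to 1011 FPKM in leaves, and 14 of 85 tested unigenes were higher and 20 lower, about the same share as the 39.7% called among all. Its most abundant unigenes were Unigene25837_All, a stearoyl-ACP desaturase called lower at -1.28 ± 0.12, and CL8238.Contig2_All, an oxoacyl-ACP reductase called higher at 2.54 ± 0.27. In the list of transport and assembly, 11 of 34 tested unigenes were higher and 8 lower (55.9% called). There CL7212.Contig1_All, a GPAT1-like glycerol-3-phosphate acyltransferase, had 49.3, 48.7 and 37.6 FPKM in PLBs and 12.3, 11.8 and 13.2 FPKM in leaves (1.55 ± 0.16), whereas Unigene36301_All, a GPAT6 that in Arabidopsis makes cutin monoacylglycerols, was not called.

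Among regulators of cuticle genes, the called MYB factors were mostly higher in PLBs. Of 39 tested unigenes in the list of cuticle regulators, 15 were higher and 2 lower. That is 43.6% called, against 39.7% of all tested unigenes (16.8% higher and 22.9% lower). The 37 tested MYB factors held all 15 higher calls and 1 lower call, and of the 2 AP2 factors 0 were higher and 1 lower. CL5796.Contig1_All, closest to MYB94, an activator of wax genes in Arabidopsis, had 26.8, 56.7 and 29.9 FPKM in PLBs and 4.74, 4.53 and 4.03 FPKM in leaves (2.80 ± 0.33). Unigene25351_All, named WIN1 after the AP2 factor that activates cutin genes, went the other way with 16.8, 19.0 and 20.7 FPKM in PLBs, against 48.0, 45.0 and 48.1 FPKM in leaves (-1.63 ± 0.14).

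Epidermal HD-ZIP IV factors summed to 101 to 128 FPKM in PLBs and 45.2 to 53.0 FPKM in leaves, with 7 of 18 tested unigenes higher and 5 lower (66.7% called, against 39.7% of all). Stomatal lineage genes summed to 6.91 to 25.9 FPKM in PLBs and 142 to 155 FPKM in leaves, and 7 of 9 tested were lower, against 22.9% of all tested unigenes. Unigene1602_All, the EPFL9 peptide that promotes stomata, had 2.62, 4.07 and 0.54 FPKM in PLBs and 79.4, 72.6 and 74.7 FPKM in leaves. Another EPFL9 unigene, CL12905.Contig1_All, had 2.14, 19.2 and 1.78 FPKM in PLBs and 36.1, 37.1 and 34.9 FPKM in leaves and was not called. No unigene was named a Casparian strip membrane protein, and the 3 MYB36-like unigenes of the endodermis summed to 1.08 to 4.72 FPKM in PLBs and to 0 in leaves. The part of these cell types in the enzyme levels was not tested.

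**Figure D5:**
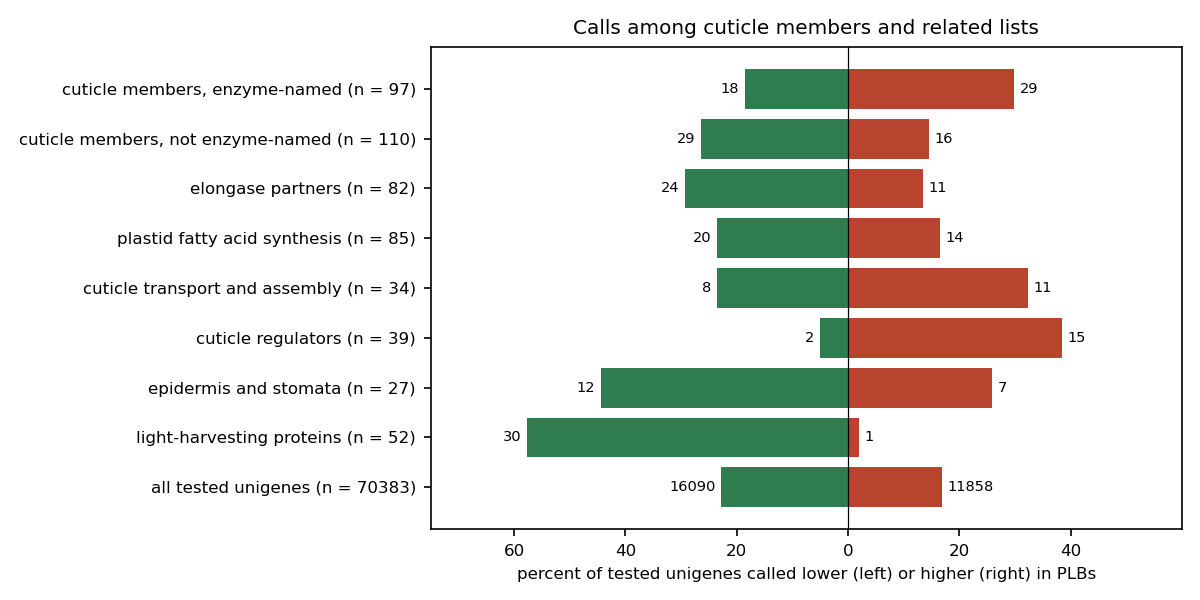
Percent of tested unigenes called higher (right) or lower (left) in PLBs among the cuticle members, the related lists and all 70383 tested unigenes, with the number called at the end of each bar. Enzyme-named members had 29 higher and 18 lower, cuticle regulators 15 and 2, and light-harvesting proteins 1 and 30.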

How the data were processed

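RNA of 3 PLB and 3 leaf samples was sequenced on the BGISEQ-500 platform and assembled de novo with Trinity and Tgicl, so no genome build applies. The authors deposited expected counts (estimated reads per unigene, not normalized) and FPKM per library, made per the submitters' processing notes with Bowtie2 2.2.5 and RSEM 1.2.8, whereas the paper's methods name BLAST for mapping. The deposited annotation and FPKM table of the series also holds the authors' own log2 fold changes, p values and q values for PLBs against leaves, which were not used. Its FPKM values differed from those of the library files by at most 0. No sequence of the unigenes was used here.

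Expected counts were rounded and fitted over all unigenes with edgeR 4.0.16 in R 4.3.3 (filterByExpr, TMM, quasi-likelihood test, Benjamini-Hochberg adjustment over all 70383 tested), with the thresholds of the study's methods. The SE of a log2 fold change was its size over the root of its F statistic. The same fit was made on counts summed by first ortholog (4103 tested), and with enzyme families in place of the 13 orthologs (4113 tested). The fit was tested on simulated data with known changes. Each ± after a log2 fold change is its SE and each ± after FPKM is an SD over 3 libraries. FPKM corrects for length and library size but not for composition: with library size alone the tested unigenes had a median of 0.31 on the log2 scale, against 0.00 with TMM (0.26 against 0.01 for orthologs). Levels of different genes were compared in FPKM, except for the shares of counts given for Unigene1142_All and CL8484.Contig1_All. Those shares, and the choice of the unigene with the most counts, also depend on transcript length.

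Members, lists and tests were chosen with earlier results of these data known. Unigenes are named by a rule: for each ortholog, the one with the highest mean FPKM in each tissue; the 8 largest rises and 8 largest falls among called members of at least 1 FPKM; for KCS, CER1/CER3 and FAR the next 2 by level; and the top 2 of each related list. The 41 orthologs outside the 13 and the light-harvesting list are given as summaries. The enzyme families, and the unigenes Unigene18539_All, Unigene18540_All, Unigene16222_All and Unigene2128_All and those of CL208, CL14827, CL4649, CL10373, CL13893 and CL4763.Contig2_All, were chosen after their values were seen. Alternatives were DESeq2 1.42.0, limma 3.58.1 on log2(FPKM + 0.1) or log2(FPKM + 1), other scalings and filters, sums by cluster, and leaving out each library.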

Additional observations from a re-analysis of the deposited data

How the results depend on the processing

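No paired analysis was possible because the labels number the libraries A10 to A15 and give no replicate numbers shared by the tissues, the numbers 1 to 3 used here being accession order within a tissue. Of the 13 orthologs, 7 kept direction and call under every alternative run, and of the 23 families 16 did. With single libraries left out, the members called in PLBs were 18 to 31 higher and 24 to 38 lower (45 and 47 with all), and the enzyme-named ones 11 to 22 higher and 10 to 16 lower (29 and 18). With fewer libraries the test has fewer degrees of freedom. At an adjusted p under 0.05 with no minimum fold, 71 members were higher and 77 lower, and 30 enzyme-named ones lower. As cluster sums, which are fewer, 24 and 30 were called, and 16 and 8 of those with enzyme-named contigs.

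Scaled by library size only, log2 fold changes were -0.0569 for FAR (K13356), -0.17 for WSD1 (K15406) and -0.41 for CYP86A4S (K15398), none called. By limma with pseudocounts of 0.1 and 1, WSD1 gave -0.21 and -0.20 and CYP86A4S -0.43 and -0.42, not called, and CYP86A1 (K15401) -0.20 with 0.1. By the unigene with the most counts alone, WSD1 was at 2.14, CYP704 (K20495) at -0.34 and HHT1 (K15400) at 3.45, all reversed. The ortholog K13356 reversed to 3.36 by that rule. Its unigene with the most counts, CL1665.Contig8_All, is the phosphoglycerate mutase-like protein, so this value is not one of a named reductase. With enzyme-named unigenes only, chosen after seeing the data, the ortholog K13356 was at 0.39, reversed. That sum held the 14 enzyme-named unigenes that listed K13356 first. The FAR family of 17, at -0.37, also held the CL14827 contigs that listed a PIF4 ortholog first. Leaving out single libraries gave -0.58 to -0.25 for WSD1, -0.84 to -0.47 for CYP86A4S and -1.05 to 1.00 for CYP86A1. Among families, FAR reversed to 0.856 and 0.815 by limma and 3.67 without CL14827. KCS13 reversed to 0.13 by library size, to 0.17 and 0.12 by limma and to 0.13 without A11. KCS6 reversed to 0.0199 by library size and to 0.0657 and 0.0651 by limma, and was called lower at -0.44 without A14. As cluster sums, CL11746.Contig1_All was at -2.13, CL1335.Contig94_All at -0.26, CL14213.Contig40_All at -0.81, and CL3157.Contig1_All and CL3157.Contig4_All at 1.16, since other contigs of the cluster outweigh them. Unigene42764_All reversed to -0.0914 by limma and ranged over -1.06 to 0.91 with single libraries left out, Unigene43247_All over -0.0469 to 0.77, and Unigene44460_All reversed to 0.0583 by library size and to 0.0259 and 0.0260 by limma. The cause of the other reversals was not tested. With 3 libraries per tissue and at least 17602153 counts each, contigs of few counts cannot be resolved, and counts shared among contigs carry an assignment error that no test here includes.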
